A study of Mus musculus with 8 samples.

Results

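The gdTc cluster, the γδ T cells of the deposited cell annotation, held 668 of 32457 annotated leukocytes. Its members were the barcodes annotated as gdTc, joined to the count matrix of the library named beside each barcode. All libraries came from C57BL/6 wild-type mice, described in the methods as adult males, and held tissue-resident leukocytes sorted as CD45iv-CD45+, that is, CD45+ cells not reached by a CD45 antibody given into the blood before perfusion. Transient middle cerebral artery occlusion (MCAO), a model of ischemic stroke, preceded 5 of the 8 libraries. These were brain parenchyma at 24 h (replicates 1 and 2), brain parenchyma at 72 h, pia mater at 24 h and dura mater at 24 h. The other libraries were control brain, control pia and control dura, called naive in the methods and sham in a legend. Animals were pooled, and the sources used here give the number of mice only per tissue compartment and not per library, so a library was 1 sample and any p-value measures only the spread between libraries. The libraries held 6591898 to 20754181 UMIs in all (unique molecular identifiers, each a counted transcript), and gdTc of a library held 6133 (brain at 24 h replicate 1) to 355157 (dura at 24 h).

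γδ T cells carry a receptor made of a γ and a δ chain in place of the α and β chains of conventional T cells, coupled to the same CD3 signalling subunits. In mice, many of those that settle in barrier tissues and the meninges are committed to IL-17 and respond to IL-23 and IL-1. In stroke, IL-17 of γδ T cells is known for promoting the entry of neutrophils. The Tc cluster is the conventional T cells of the annotation, and ILC2 are innate lymphoid cells that depend on GATA3, make type 2 cytokines and lack a rearranged antigen receptor.

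RORα, the nuclear receptor made from Rora, binds DNA at elements built around AGGTCA. Shown are upstream sequences of 3 genes of this IL-17 pathway, those that held these letters on either strand among 8 genes searched. Each is the 250 bases before the transcription start, 5′ to 3′ on the gene's strand, from RefSeq on GRCm38.p6. Capitals mark AGGTCA or its reverse complement TGACCT.
Il17a (chr1:20730655-20730904, plus strand): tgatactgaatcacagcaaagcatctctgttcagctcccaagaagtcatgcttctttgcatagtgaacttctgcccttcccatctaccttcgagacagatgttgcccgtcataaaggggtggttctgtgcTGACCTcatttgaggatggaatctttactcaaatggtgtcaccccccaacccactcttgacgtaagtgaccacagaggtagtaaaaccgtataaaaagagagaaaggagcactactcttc
Il17f (chr1:20784271-20784520, minus strand): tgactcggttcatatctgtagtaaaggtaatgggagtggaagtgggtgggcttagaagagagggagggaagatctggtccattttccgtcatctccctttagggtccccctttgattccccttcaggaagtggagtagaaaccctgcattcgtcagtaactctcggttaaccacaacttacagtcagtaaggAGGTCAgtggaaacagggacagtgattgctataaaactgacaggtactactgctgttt
Il23r (chr6:67491856-67492105, minus strand): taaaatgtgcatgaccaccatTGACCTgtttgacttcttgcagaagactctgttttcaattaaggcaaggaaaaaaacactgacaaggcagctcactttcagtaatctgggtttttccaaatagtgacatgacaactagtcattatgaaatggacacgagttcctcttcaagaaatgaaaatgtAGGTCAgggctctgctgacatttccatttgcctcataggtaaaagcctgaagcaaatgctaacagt

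The windows of Il17a and Il17f held 1 match each, and that of Il23r held 2. In Il17a the match lay on the other strand, 120 to 115 bases before the start. In Il17f it lay on the gene's strand, 58 to 53 bases before the start. In Il23r, 1 match lay on the gene's strand at 66 to 61 bases and 1 on the other strand at 229 to 224 bases. Of all 32851 promoter windows in the table, 14.0% held at least 1 match on either strand. A match describes the letters and is not a binding site.

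The libraries fell apart in a way that groups did not follow. Brain at 72 h and replicate 2 of brain at 24 h were counted on a list of 31053 genes and the other 6 libraries on 32285. Among annotated cells, any pair of those 6 libraries shared 10 to 32 barcode sequences, the 2 libraries with the shorter list shared 8 with each other, and pairs of 1 of each shared 0 to 2. No barcode was shared between gdTc of different libraries, and 11 gdTc barcodes recurred in an annotated cell of another library. The supplement names kit version 3 for dura at 24 h and brain at 72 h and version 2 for the rest, which is not the split that the barcodes and gene lists show. Control pia carries a title that names brain and tissue labels that name pia, and was taken as pia. In gdTc of the 2 short-list libraries Fos, an immediate early gene, stood at 4678 and 3024 CPM (the UMIs of a gene as a rate of the summed UMIs of that cluster and library) against 385 to 570 in pia and dura. Klf2, a regulator of lymphocyte egress, stood at 870 and 652 CPM against 39.4 to 63.3 in pia and dura. The other 2 brain libraries, with 6 and 4 gdTc, gave 1827 and 1468 CPM of Fos and 653 and 163 CPM of Klf2, so tissue and gene list cannot be told apart from these levels. The comparisons with Tc and ILC2 are therefore also given without brain at 72 h, and the cause of the split was not tested.

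γδ T cells were mainly cells of the dura. Dura held 540 of the 668 (80.8%), brain 69 (10.3%) and pia 59 (8.83%). Of annotated cells they made up 6.76% in control dura (95% exact binomial interval 5.86 to 7.75, 190 cells) and 7.75% in dura at 24 h (6.98 to 8.57, 350 cells). In pia the share was 0.569% in the control (0.326 to 0.923, 16 cells) and 1.10% at 24 h (0.795 to 1.47, 43 cells). In brain the share was 0.140% in the control (0.0513 to 0.304, 6 cells). At 24 h brain gave 0.0873% in replicate 1 (0.0238 to 0.223, 4 cells) and 0.519% in replicate 2 (0.308 to 0.819, 18 cells), and at 72 h it gave 0.678% (0.487 to 0.918, 41 cells).

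The intervals of the 2 brain replicates at 24 h did not overlap, so counting error understates the spread between libraries. Neither the difference from control to 24 h in pia nor that in dura was tested, since each rests on 1 library per condition, and in both tissues the intervals overlapped. Brain at 72 h and replicate 2 of brain at 24 h, which hold most of the brain γδ T cells, are also the libraries with the shorter gene list. All intervals cover counting error only.

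**Figure D1:**
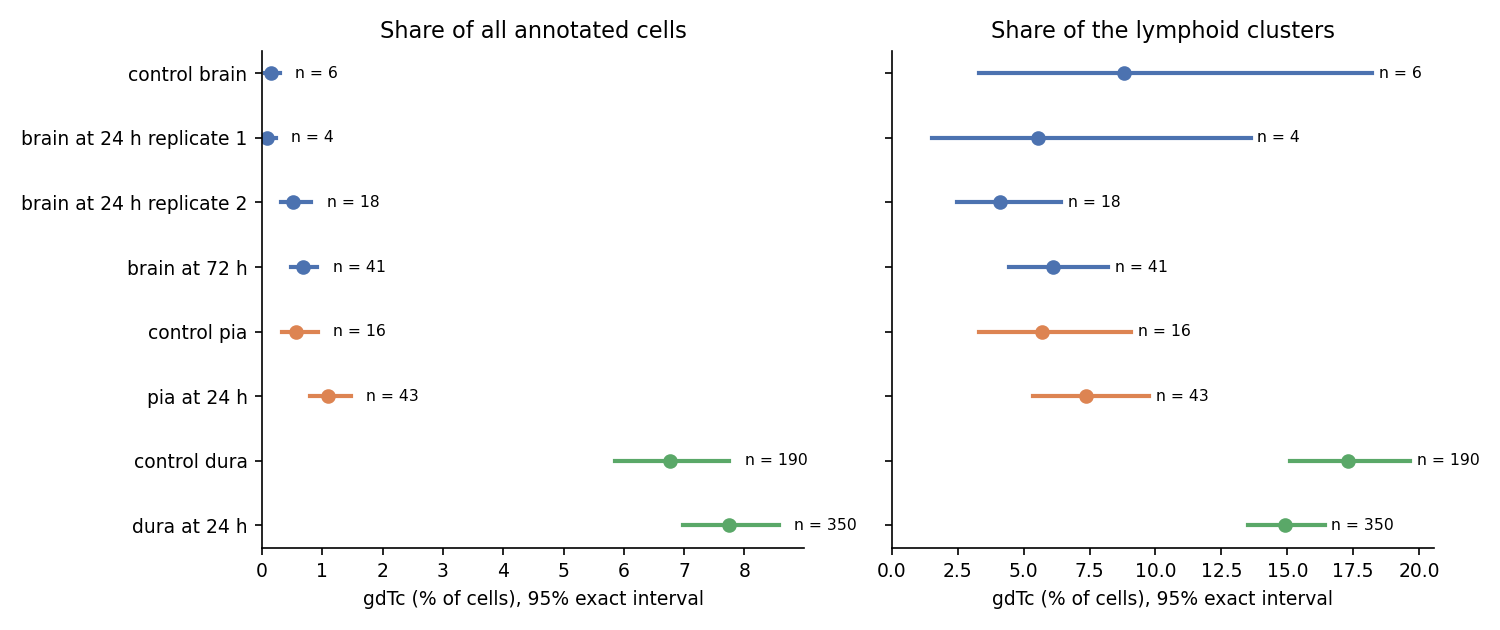
Share of gdTc in each library, of all annotated cells (left) and of the lymphoid clusters Bc, Tc, NK, gdTc and ILC2 (right), in percent. Points are shares, bars are exact 95% intervals and n is the number of gdTc. The 2 dura libraries lie above all others in both panels.

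As a share of the lymphoid clusters, γδ T cells again stood highest in dura. They made up 17.3% of lymphoid cells of control dura, and 14.9% of those of dura at 24 h. The other 6 libraries lay between 4.12% (brain at 24 h replicate 2) and 8.82% (control brain, 6 of 68 cells).

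The label was borne out by the γδ receptor genes in dura, and less clearly elsewhere. Trdc, the constant segment of the δ chain (chr14:54142851-54148868 on GRCm38), stood in gdTc at 6943 CPM in control dura, 5823 in dura at 24 h, 3573 in control pia and 2320 in pia at 24 h. Brain gave 4046 CPM of Trdc in the control (31 UMIs), 652 and 940 CPM in replicates 1 and 2 of 24 h, and 815 CPM at 72 h. Tc of the same libraries held 0 to 140 CPM of Trdc and ILC2 held 0 to 56.4. The clusters did not overlap in any library, and Trdc was lowest in brain at 24 h replicate 1 (4 cells) and in the 2 short-list libraries. Of all Trdc UMIs in annotated cells, gdTc held 90.8% (control dura) and 93.1% (dura at 24 h), but 63.7% in control pia, 73.8% in control brain, 62.5% in replicate 2 of brain at 24 h and 68.2% in brain at 72 h. In replicate 1 of brain at 24 h gdTc held 14.3% of 28 Trdc UMIs and NK cells 75.0%, while a γ or δ chain was counted in all 4 of its gdTc. NK cells held Trdc in 19.1% of cells in control dura. Trdc and Cd3g are the genes by which the study named the cluster, so their height is a check and not a result.

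γ chain genes set gdTc apart as well. Tcrg-C1, a constant segment of the γ chain (chr13:19214103-19217024), ranged in gdTc from 435 CPM in brain at 72 h to 2208 in dura at 24 h, against 0 to 38.4 in Tc and 56.4 to 584 in ILC2. Tcrg-C4 did not separate the clusters as well, with 231 CPM in gdTc and 208 in ILC2 of dura at 24 h. Tcrg-C1 and Tcrg-C2 are close copies of each other, so counts between them are uncertain. Cd3g, a CD3 subunit (chr9:44969572-44980431), stood in gdTc at 815 to 3054 CPM. It did not set gdTc apart from Tc, which held 636 to 2345 CPM, and ILC2 held 14.1 to 361. Variable segments were rarely counted in this assay, which reads the 3′ end. Trdv4, a variable δ segment, gave 17 UMIs in gdTc of brain at 24 h replicate 2, 14 in brain at 72 h, and 18 and 34 in the control and 24 h libraries of dura, at most 2 in the other libraries and 0 in Tc. Tcrg-V6, the γ segment usual for meningeal γδ T cells, gave 3 UMIs in each of the first 2 of these, 2 in control dura and none elsewhere.

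α and β chains were partly present. Trac, the constant α segment, stood in gdTc between 104 CPM (dura at 24 h) and 506 CPM (pia at 24 h), below Tc of the same library everywhere (661 to 1984 CPM). Trbc1 and Trbc2, the constant β segments, stood in gdTc at 272 to 825 CPM and at 494 to 1468 CPM. Cd8a, the CD8 coreceptor, gave 1 UMI in control pia and 1 in dura at 24 h, and Cd4 gave 2 UMIs in brain at 24 h replicate 2 and 2 in pia at 24 h.

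**Figure D2:**
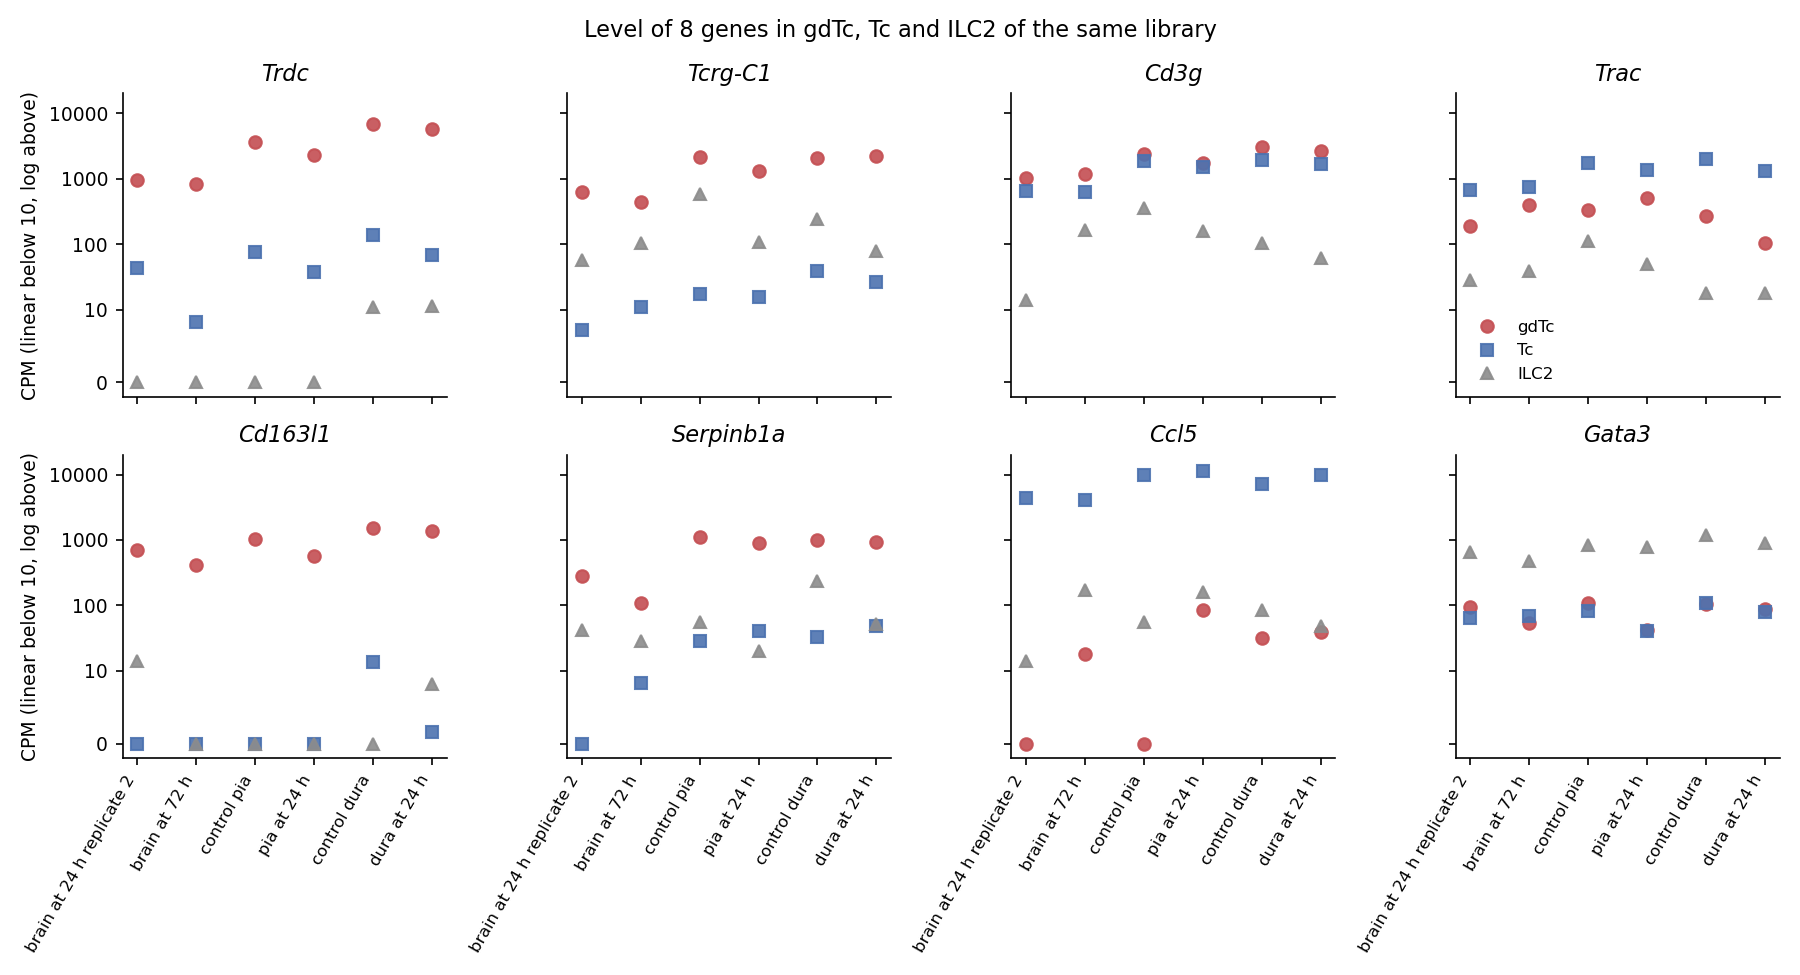
Level of 8 genes in CPM of summed counts (axis linear below 10 and logarithmic above) in gdTc, Tc and ILC2 of the 6 libraries with at least 10 gdTc. Trdc, Cd163l1 and Serpinb1a of gdTc lie above both other clusters in each library, and Ccl5 of gdTc lies below Tc in each.

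Cell by cell, δ chain transcripts were most often counted in dura. To make cells comparable, each was thinned to 500 UMIs, which left no gdTc out. A UMI of Trdc then occurred in 82.1% of gdTc in control dura (75.9 to 87.3) and 80.0% in dura at 24 h (75.4 to 84.1). It occurred in 68.8% in control pia (41.3 to 89.0), whose interval overlaps those of dura, in 46.5% in pia at 24 h (31.2 to 62.3), in 29.3% in brain at 72 h (16.1 to 45.5) and in 16.7% in replicate 2 of brain at 24 h (3.58 to 41.4). B cells, which should lack the gene, held Trdc in at most 0.654% of thinned cells in any of these libraries. Median UMIs per cell in gdTc ranged from 976 (dura at 24 h) to 2475 (brain at 24 h replicate 2), and without thinning the shares were, in the same order, 85.8%, 84.0%, 81.2%, 53.5% and 46.3%, with 9 of 18 cells in the last. B cells had median depths of 810.5 to 1642 UMIs.

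Some annotated γδ T cells showed no γ or δ constant transcript. Without thinning, none of Trdc, Tcrg-C1, Tcrg-C2 or Tcrg-C4 was counted in 10 of 190 cells of control dura (5.26%), 23 of 350 of dura at 24 h (6.57%), 13 of 43 of pia at 24 h (30.2%) and 13 of 41 of brain at 72 h (31.7%). In control pia it was 2 of 16 (12.5%), and in replicate 2 of brain at 24 h 5 of 18 (27.8%). Among these cells of the first 4 libraries a UMI of Trac occurred in 2 of 10, 4 of 23, 7 of 13 and 5 of 13. A CD3 subunit was counted in 9 of 10, 17 of 23, 10 of 13 and 13 of 13, and in 2 of 2 cells of control pia and 3 of 5 of replicate 2 of brain at 24 h. In the first 4 libraries a CD3 UMI was also counted in 14.7 to 27.7% of NK cells and 5.35 to 23.5% of ILC2.

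**Figure D3:**
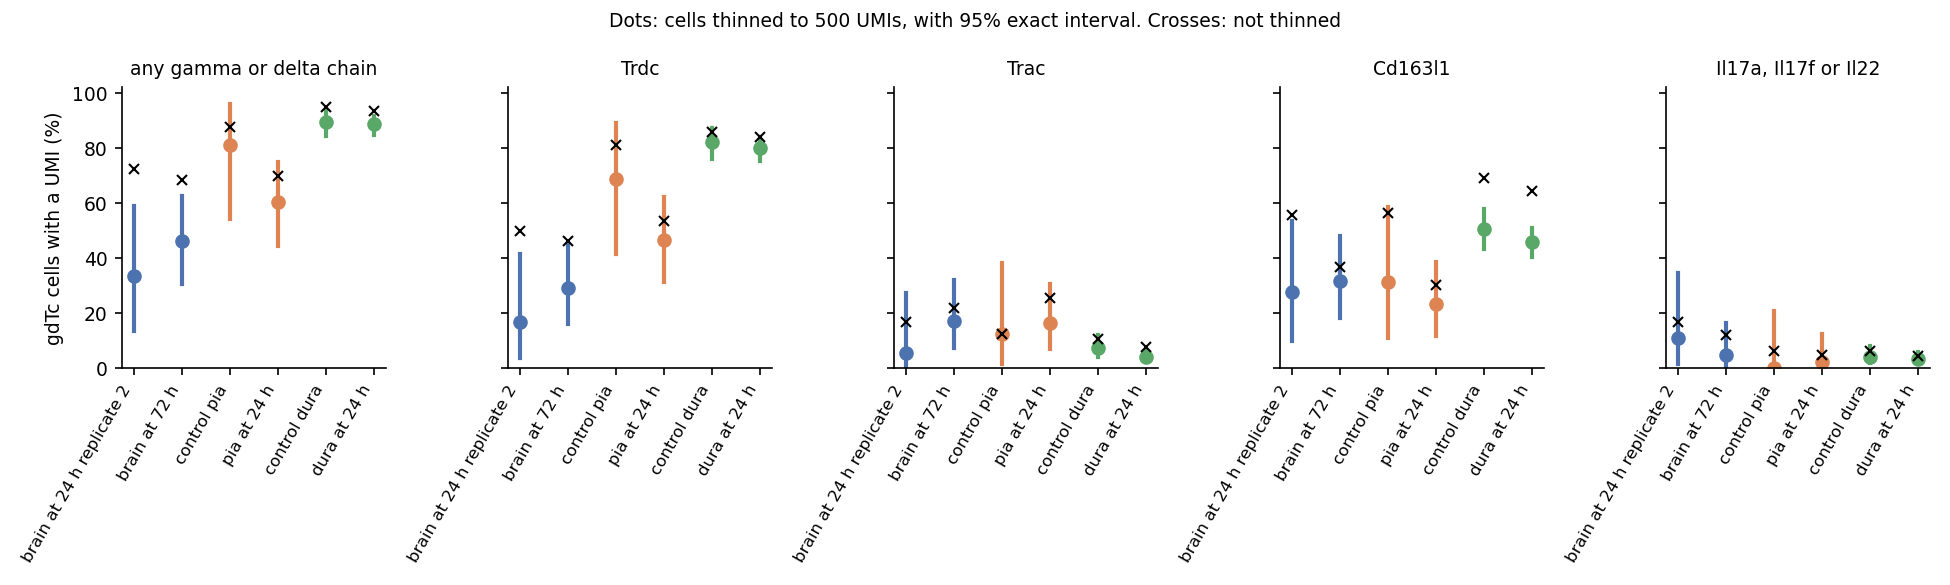
Percent of gdTc cells with a UMI of a gene or gene set, by library. Dots and bars are shares after thinning each cell to 500 UMIs with exact 95% intervals, and crosses are shares without thinning. The 2 dura libraries lie highest for Trdc and for any γ or δ constant chain.

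Against Tc of the same library, γδ T cells had higher levels of Tmem176a, Tmem176b and Ramp1 and lower levels of Ccl5 in all 4 libraries that could be compared. These were the 4 libraries with at least 30 cells of each cluster, that is, both dura libraries, pia at 24 h and brain at 72 h. A gene was counted as higher or lower if its CPM differed at least 2-fold in the same direction in all 4, a rule of size without a test, since the clusters were made from these genes. By this rule 39 of 2055 genes (1.9%) were higher and 46 (2.24%) were lower in γδ T cells, around a median log2 ratio over all genes of 0.01. With TMM factors as the scale the median moved to -0.23 and the counts to 29 higher and 59 lower, that is, 33.0% of calls higher in place of 45.9%. With 2 counts added in place of 0.5 the median was 0.15 and the counts 42 higher and 31 lower, or 57.5% higher, and 31 of the 46 lower genes were kept.

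Cd163l1, a scavenger receptor known from IL-17-committed γδ T cells (chr7:140218267-140231145), had the highest ratio. Its level in gdTc was 1502 CPM in control dura, 1374 at 24 h in dura, 570 in pia at 24 h and 417 in brain at 72 h, and 13.7, 1.64, 0 and 0 CPM in Tc. The mean log2 ratio was 8.14 ± 1.07 (SD, n = 4 libraries), and 6.85 with 2 counts added in place of 0.5. Tmem176a and Tmem176b, neighbouring ion channel genes, followed Trdc and Tcrg-C1 with 4.34 ± 0.31 and 4.19 ± 0.93. Ramp1, a subunit of the receptor for the neuropeptide CGRP, came next with 3.65 ± 0.74, from levels of 654 to 1304 CPM in gdTc and 27.6 to 132 in Tc. The others among the 10 highest were Lmo4 (3.42 ± 0.99), Ckb (3.27 ± 0.92), Krt83 (3.12 ± 0.31) and F2r (2.93 ± 0.68), the last coding for a thrombin receptor.

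At the low end stood Ccl5, a chemokine of memory and killer T cells. Ccl5 reached 4153 to 11372 CPM in Tc of these libraries and 18.1 to 84.4 in gdTc, a mean log2 ratio of -7.45 ± 0.46. Cd8a and Cd8b1 followed with -5.28 ± 0.91 and -5.21 ± 0.63, and were -3.56 and -3.81 with 2 counts added. These ratios depend on the 0.5 counts added, since gdTc gave at most 1 and 2 UMIs in a library. Cd8a is among the genes by which the study named Tc, so its ratio is a check and not a result. The killer cell receptors Klrc1 (-5.06 ± 1.75) and Klrd1 (-4.15 ± 0.64), the chemokine Xcl1 (-5.01 ± 1.74) and the granule protein gene Nkg7 (-4.55 ± 1.27) were lower as well, and with 2 counts added these were -3.35, -2.83, -3.62 and -4.34. Gzmk, a granzyme, gave no UMI in gdTc of the 4 libraries, and against the floor of 3 counts per library its mean ratio was at least 5.01-fold lower. The other 2 of the 10 lowest were Tnfrsf4, a costimulatory receptor (-4.54 ± 2.36), and Gimap7 (-4.45 ± 0.77), at -3.56 and -3.30 with 2 counts added.

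**Figure D4:**
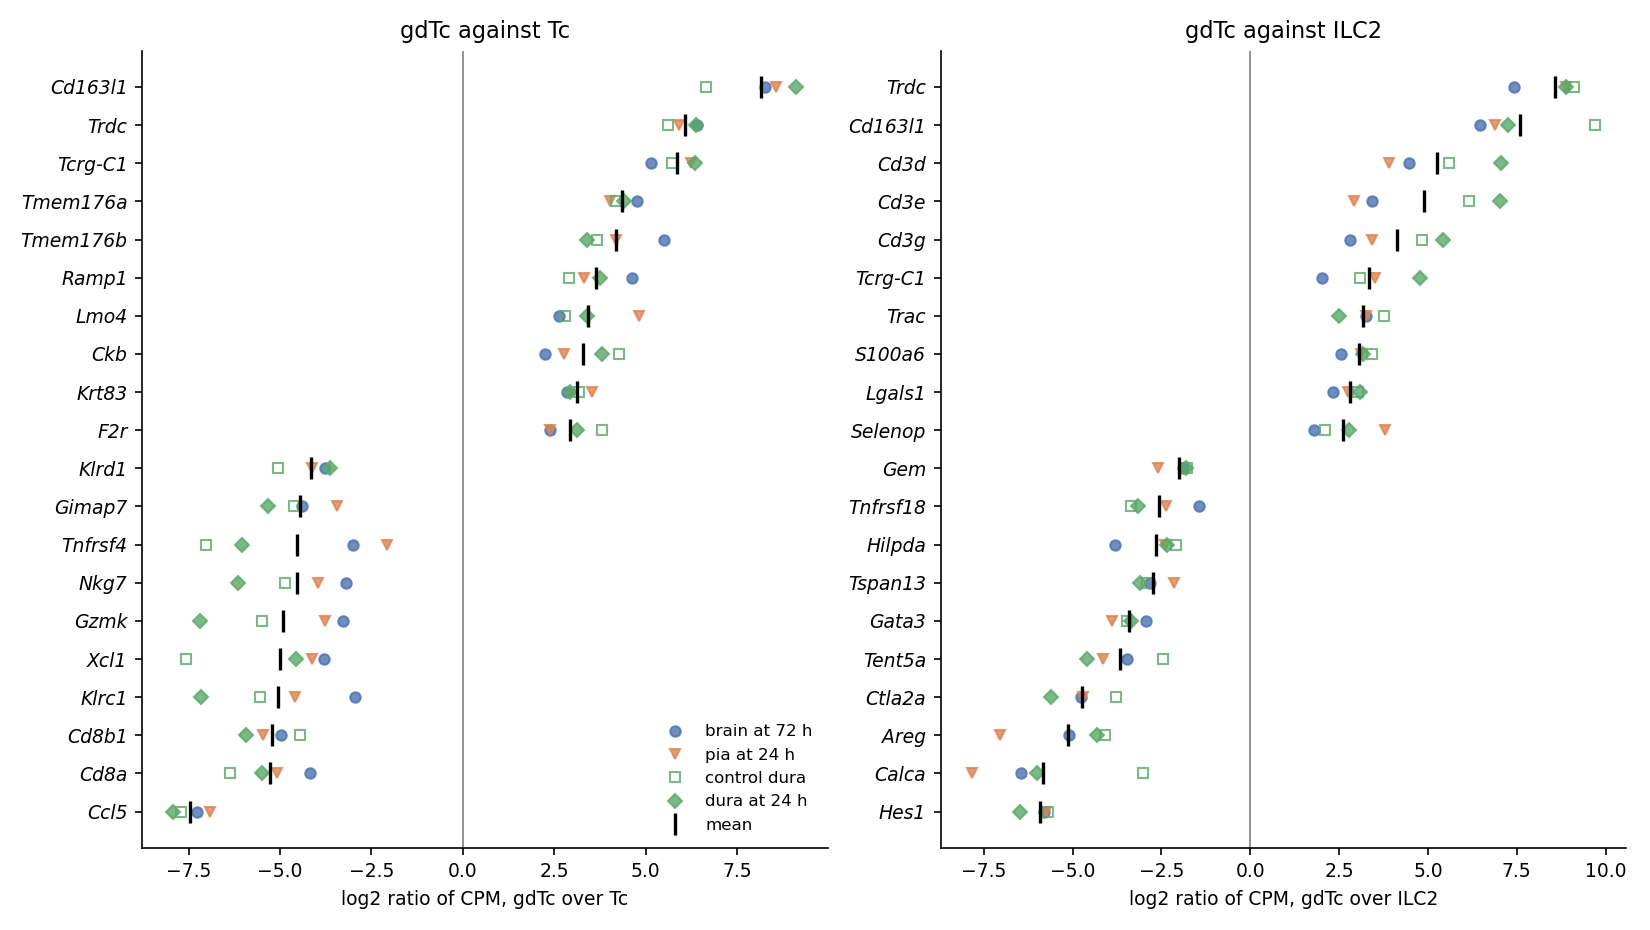
Log2 ratio of CPM of gdTc over Tc (left) and over ILC2 (right) for the 10 highest and 10 lowest genes of each comparison. Points are the 4 libraries and black ticks their means. Ratios of genes without UMIs in a cluster depend on the 0.5 counts added. No point crosses 0, which the rule of choice fixes.

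Of all 2055 genes tested against Tc, 1.9% were higher and 2.24% lower. Grouped by role, the type 17 list held 7 higher and 0 lower genes among its 9 tested members, with a median log2 ratio of 2.25. Only 9 of its 30 members in the gene table reached the minimum of 20 UMIs over both clusters in every library, which a low gene reaches only through the cluster where it is high, so the count and median are partly fixed by this minimum and support nothing. The 7 were Cd163l1, Tmem176a, Tmem176b, Ramp1, Rora, Il18r1 and Cxcr6. Rora, a nuclear receptor, stood at 542 to 844 CPM in gdTc and 152 to 269 in Tc of the 4 libraries. Il18r1, a chain of the IL-18 receptor, stood at 262 to 742 CPM in gdTc and 65.9 to 149 in Tc. Cxcr6, a chemokine receptor of tissue-resident lymphocytes, stood at 525 to 2741 CPM in gdTc and 147 to 628 in Tc, lowest in brain at 72 h in both clusters. Rora and Cxcr6 are also in the type 2 and ILC2 list, of which 3 of 4 tested genes were higher than in Tc (Lmo4, Rora and Cxcr6, median 1.97). Lists were chosen with these data known, so their counts describe the clusters and test nothing.

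Il23r, Blk, Serpinb1a and Actn2 were too low for the rule, but stood higher in gdTc than in Tc of each library with at least 10 gdTc. Further genes tied to IL-17-committed γδ T cells are not tallied here. Il23r, a chain of the IL-23 receptor, stood at 63.3 to 170 CPM in gdTc of the 6 libraries with at least 10 gdTc and at most at 2.77 in Tc and 3.61 in ILC2. Blk, a kinase needed by IL-17-committed γδ T cells (chr14:63372836-63417037), gave no UMI in Tc of any library. In gdTc of control pia and pia at 24 h it gave only 1 and 2 UMIs, below the floor of 3 counts. Serpinb1a, a protease inhibitor, and Actn2 stood at 109 to 1099 CPM and 199 to 955 CPM in gdTc of these libraries and at most at 47.7 and 58.1 CPM in Tc.

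The cytokines themselves were rare. Il17a gave 5 UMIs in brain at 24 h replicate 2, 9 in brain at 72 h, 3 in pia at 24 h, and 7 and 14 in the control and 24 h libraries of dura, and none in the other 3 libraries. Il17f gave 21 UMIs in 6 cells of control dura and 7 UMIs in 5 cells of dura at 24 h. Il22 was seen in dura alone, with 6 UMIs in 1 cell of the control and 14 in 2 cells at 24 h. After thinning, any of these cytokines was counted in 4.21% of gdTc in control dura (1.84 to 8.13), 3.43% in dura at 24 h (1.78 to 5.91), 2.33% in pia at 24 h (0.0589 to 12.3) and 4.88% in brain at 72 h (0.596 to 16.5). Tc held them in at most 0.402% of thinned cells and B cells in none. In replicate 2 of brain at 24 h they were counted in 11.1% (1.38 to 34.7, 2 of 18 cells) and in control pia in 0 of 16 cells (exact interval up to 20.6%), where 1 of 16 held one without thinning. These shares rest on few cells of single libraries, and differences between them were not tested.

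Beside the 2.24% lower and 1.9% higher of all genes tested against Tc stands the type 1 and cytotoxic list. Lower levels in γδ T cells were found for 9 of its 15 tested members with 0 higher and a median of -2.99 (-2.33 with Gzmk at its bound). This list had 23 members in the gene table, and here too the minimum was reached by genes such as Gzmk and Klrc1 only through Tc, so the count and median support nothing. Besides those named, they were Cd27, Gzmb and Ly6c2. Tbx21, the type 1 master regulator, stood at 0 to 23.5 CPM in gdTc and 22.3 to 98.8 in Tc. Ifng was not counted in gdTc of pia at 24 h, control dura or dura at 24 h, which allows up to 63.3, 13.8 and 8.45 CPM, and stood at 90.6 CPM (5 UMIs) in brain at 72 h. Gzma and Eomes gave no UMI in gdTc of any library. NK cell markers summed to 18.4 and 16.9 CPM in gdTc of control dura and dura at 24 h, with Gzma and Ncr1 at 0 in both. Il2rb, the shared receptor chain for IL-2 and IL-15, was the most abundant gene of the type 1 list and stood at 420 to 633 CPM in gdTc of the 4 libraries and 375 to 469 in Tc.

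Some genes of T cell receptor signalling and costimulation were lower than in Tc. Over all genes tested against Tc, 1.9% were higher and 2.24% lower. Of 18 tested genes of the CD3 and receptor signalling list, 6 were lower and 0 higher, around a median of -0.07. The CD3 subunits, Lat and Zap70 were not among them. The 6 were Lck, Cd2, Cd5, Cd6, Cd28 and Sh2d1a. Lck, the kinase that starts signalling at coreceptors, stood at 36.7 to 190 CPM in gdTc of the 4 libraries against 332 to 840 in Tc. Cd28, the costimulatory receptor, stood at 163 CPM in gdTc of brain at 72 h and 8.45 to 42.2 in the other 3, against 291 to 592 in Tc. Such low genes reached the minimum of UMIs mainly through Tc, so the count and median describe the clusters and support nothing.

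Receptors for trafficking and cytokines completed the contrast with Tc. Ccr2, a receptor for inflammatory chemokines, stood at 211 to 625 CPM in gdTc against 44.4 to 90.6 in Tc. Ccr7, which guides T cells to lymph nodes, stood at 0 to 5.63 CPM against 63.6 to 253. The integrin genes Itga4 and Itgb1 were lower too. Il7r, the IL-7 receptor, stood at 464 to 923 CPM against 124 to 329. Icos, a costimulatory receptor, stood at 625 to 900 CPM against 207 to 354. Pdcd1, coding for PD-1, was not called, with no UMI in gdTc of brain at 72 h and 295 to 822 CPM in the other 3 libraries against 122 to 305 in Tc. Without brain at 72 h the rule called 75 genes higher and 79 lower of 2740 tested. Of 12 tested type 17 genes 9 were then higher (median 2.86). Lower were 10 of 15 type 1 genes (median -3.39) and 7 of 19 CD3 and signalling genes (median -0.27). The minimum of UMIs partly fixes these counts and medians too, so they support nothing. The mean ratios of the 10 highest and 10 lowest genes each moved by less than their SD without brain at 72 h. Ramp1 then stood at 3.33 and Tmem176b at 3.75.

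Against ILC2 of the same 4 libraries, γδ T cells had higher levels of S100a6 and Lgals1 and lower levels of Tspan13. T cell receptor genes, also higher, are among the markers of gdTc, and Gata3, also lower, is among those of ILC2. Of 764 genes tested, 22 (2.88%) were higher and 13 (1.7%) lower, around a median log2 ratio of 0.05. With TMM factors the median moved to -0.30 and the counts to 14 higher and 21 lower, that is, 40.0% of calls higher in place of 62.9%. Higher were Trdc (8.58 ± 0.77), Cd163l1 (7.58 ± 1.45), the CD3 genes Cd3d (5.25 ± 1.40), Cd3e (4.88 ± 2.02) and Cd3g (4.12 ± 1.22), Tcrg-C1 (3.35 ± 1.14) and Trac (3.19 ± 0.52). ILC2 gave no UMI of Trdc in 2 and of Cd163l1 in 3 of the 4 libraries, and with 2 counts added these ratios were 7.40 and 6.04. S100a6, a calcium-binding protein gene, stood at 1413 to 3676 CPM in gdTc and 158 to 620 in ILC2 (3.07 ± 0.36). Lgals1, coding for galectin-1 (2.80 ± 0.34), and Selenop, coding for a selenium carrier (2.62 ± 0.89), closed the 10 highest.

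On the low side stood Hes1, a Notch target (-5.92 ± 0.37, and -4.77 with 2 counts added), at 0 to 18.4 CPM in gdTc and 496 to 1623 in ILC2. Calca, which codes for CGRP, the ligand of the receptor that Ramp1 belongs to, stood at 0 to 184 CPM in gdTc and 792 to 7213 in ILC2 (-5.83 ± 2.03, and -5.06 with 2 counts added). Areg, coding for the repair factor amphiregulin, stood at 0 to 96.4 CPM against 305 to 1666 (-5.13 ± 1.34, and -4.11 with 2 counts added). Gata3, the regulator of type 2 lymphocytes, stood at 42.2 to 106 CPM against 477 to 1187 (-3.41 ± 0.39). The study named ILC2 by Gata3 and Rora, so this is a check and not a result. The level of Gata3 in gdTc was close to that in Tc of the same libraries, 40.2 to 110 CPM. Ctla2a (-4.72 ± 0.75), Tent5a (-3.67 ± 0.93), Tspan13 (-2.74 ± 0.41), Hilpda (-2.66 ± 0.78), Tnfrsf18 (-2.58 ± 0.87) and Gem (-2.02 ± 0.40) were the others among the 10 lowest. Csf2, coding for GM-CSF, stood at 13.8 to 21.1 CPM in gdTc of the 4 libraries against 47.7 to 2385 in ILC2.

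By list, 4 of 7 tested type 17 genes were higher than in ILC2 and 1, Nfkbiz, was lower. Of 7 tested type 2 genes 3 were lower (Gata3, Areg and Calca) and 0 higher. All genes tested gave 2.88% higher and 1.7% lower. Only 7 of 30 type 17 and 7 of 24 type 2 genes in the gene table reached the minimum, some such as Cd163l1 and Areg through 1 cluster alone in some libraries, so these counts describe the clusters and support nothing. Of 23 tested immediate early and NF-κB feedback genes 1, Nr4a1, was lower, with a list median of -0.88. Without brain at 72 h the rule called 44 genes higher and 44 lower of 1147 tested. Of 10 tested type 17 genes 6 were then higher and 1 lower. Lower were 7 of 11 type 2 genes and 5 of 24 immediate early and feedback genes. These counts too describe the clusters and support nothing. The mean ratios of the 20 genes named above moved by less than their SD without brain at 72 h.

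Both comparisons together left 8 genes that were higher in γδ T cells than in Tc and than in ILC2. They were Trdc, Tcrg-C1, Cd163l1, Tmem176a, Tmem176b, Ramp1, Krt83 and Selenop, 20.5% of the genes higher than Tc and 36.4% of those higher than ILC2. Of the 39 genes higher than Tc, 29 could be tested against ILC2. The comparisons share the gdTc libraries and are not independent. Ctla2a was lower than in both. Without brain at 72 h 14 genes were higher in both, the 8 among them. Upstream windows of 5 of the 8 genes were in the promoter table, and none of the 5 held AGGTCA or TGACCT.

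Depth of gdTc was set against that of Tc. Median UMIs per cell had a mean log2 ratio of 0.06 ± 0.10 over the 4 libraries, higher in gdTc in 2 of 4 (exact two-sided sign-flip permutation p = 0.5). Median genes per cell had 0.11 ± 0.06, higher in 4 of 4 (exact permutation p = 0.125, the smallest that 4 libraries allow). Without brain at 72 h the means were 0.10 and 0.12, higher in 2 of 3 and 3 of 3 libraries (exact permutation p = 0.5 and 0.25, the latter the smallest that 3 libraries allow). ILC2 were not part of this test, and their median UMIs were 919.5 (control) and 891 (24 h) for dura, against 1132 and 976 in gdTc.

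In the library of dura at 24 h after MCAO, γδ T cells had lower levels of several interferon-response genes than in that of control dura. Of 3952 genes tested, 165 (4.18%) were at least 2-fold higher and 97 (2.45%) at least 2-fold lower, around a median of 0.03, in a comparison of 1 library with 1. The 95% exact counting interval of the ratio left out 0 for 94 of the higher and 70 of the lower genes, and the other calls lie within counting error. Since all genes come from the same 2 libraries, no test between conditions is possible. By the supplement the 2 libraries also differ in kit, version 3 at 24 h and version 2 in the control. Both were, however, counted on the longer gene list and shared 17 barcodes. With brain at 72 h, the other library of version 3, dura at 24 h shared 1. Which kit was used was not tested.

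Cxcl10, an interferon-induced chemokine, had the lowest ratio. It gave 32 UMIs in 13 of the 190 control cells, up to 9 in a cell, and 3 UMIs in 3 of the 350 cells at 24 h, that is, 147 and 8.45 CPM with a log2 ratio of -3.92 (-6.47 to -2.44). Ifit1 stood at 156 and 28.2 CPM (-2.42, -3.65 to -1.42), with up to 11 UMIs in 1 of 15 control cells. Ifit3 stood at 73.5 and 14.1 CPM (-2.29), and the interferon-induced GTPase genes Tgtp1 and Gbp6 at 73.5 and 11.3 CPM (-2.58) and at 133 and 25.3 CPM (-2.34). Ccl8, a chemokine made mainly by macrophages, stood at 142 and 25.3 CPM (-2.43), with 16 of its 31 control UMIs in a single cell. Tgtp1 and Ifit3 have close copies, which makes their counts uncertain.

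Over all 3952 genes tested in dura, 2.45% were lower and 4.18% higher at 24 h. Of 13 tested genes of the type I interferon list, 6 were lower and 0 higher, with a median of -0.85. Among them were Ifit1, Ifit3, Rtp4, Ifitm3 and Ifi27l2a. The list summed to 3145 CPM in control dura and 1929 at 24 h in gdTc. It also stood lower in the neighbouring clusters, at 3921 and 1900 CPM in Tc and 2204 and 1390 in ILC2. In pia the list summed in gdTc to 3903 CPM in the control and 2384 at 24 h, but Cxcl10 stood at 55.0 and 63.3 CPM (1 and 3 UMIs) and Gbp6 at 110 and 127 CPM (2 and 6 UMIs). The fit over dura and pia described next called no interferon gene, with Ifit1 at -2.32 (SE 0.470, edgeR adjusted p = 0.0882). Whether the difference is one of time, of kit, of library or of control animals cannot be told apart.

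Genes higher in dura at 24 h started from few counts. Rhox7a, a homeobox gene, gave 1 UMI in control dura and 23 in 19 cells at 24 h (log2 ratio 3.26, 1.20 to 9.18), and no UMI in gdTc of the other 6 libraries or in Tc or ILC2 of any library. Retnlg, a neutrophil gene, gave 2 and 32 UMIs (2.99, 1.32 to 6.40). Rdm1 gave 1 and 21 UMIs (3.14), Nxf1, an mRNA export factor, 1 and 21 (3.14), Sppl3 2 and 24 (2.59), and Akt1, a growth factor kinase, 3 and 29 (2.37). Akt1 (log2 ratios 1.39 and 1.23), Nxf1 (0.80 and 0.31) and Sppl3 (0.37 and 1.30) also stood higher at 24 h in Tc and ILC2 of dura. Rdm1 did not move alike there (-0.21 and 0.05). With 2 counts added in place of 0.5, 89 genes were higher in gdTc.

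Neutrophil transcripts stood higher at 24 h in each lymphoid cluster of dura that was compared. In gdTc the 7 neutrophil markers summed to 165 CPM in control dura and 405 at 24 h, with S100a8 the most abundant at 73.5 and 200 CPM and Cxcr2 at 0 in both. The same sum was 173 and 394 CPM in Tc and 184 and 440 in ILC2. Retnlg stood at 38.4 and 90.4 CPM in Tc and 28.9 and 97.7 in ILC2. S100a8 was spread over 62 of 350 gdTc at 24 h with at most 3 UMIs in a cell. The part of transcripts from other cells in these values was not tested.

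**Figure D5:**
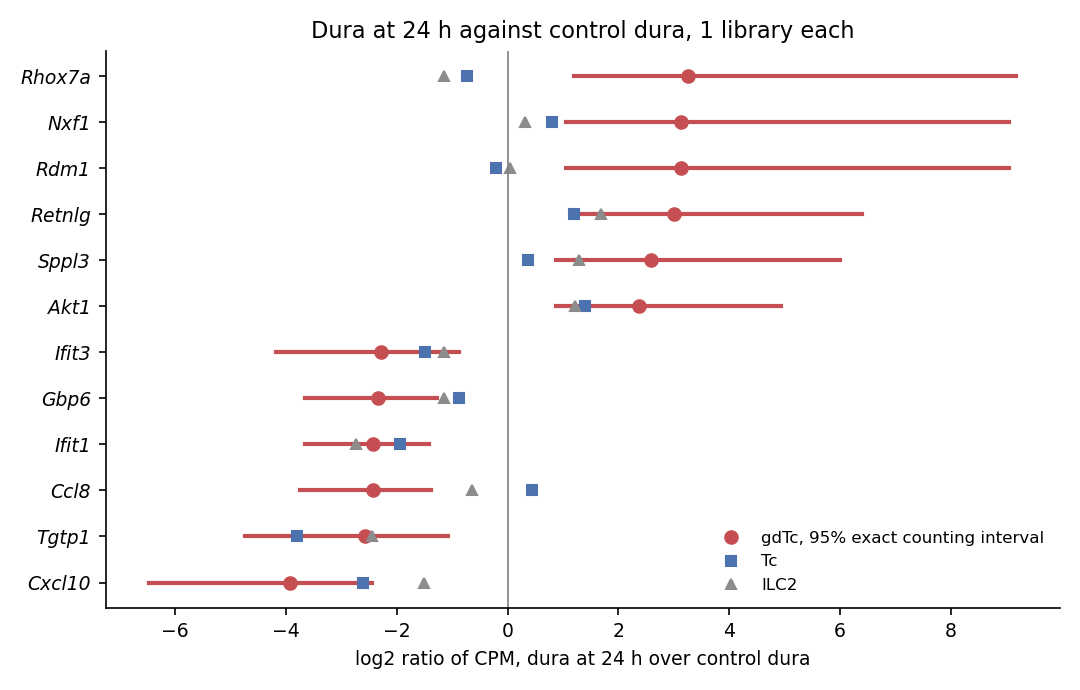
Log2 ratio of CPM, dura at 24 h over control dura, for the 6 highest and 6 lowest genes of gdTc. Circles with bars are gdTc with exact 95% counting intervals, squares are Tc and triangles ILC2. Retnlg, Akt1, Nxf1 and Sppl3 lie above 0 and Cxcl10, Tgtp1, Ifit1, Gbp6 and Ifit3 below 0 in all 3 clusters. In ILC2, Ifit1 and Ifit3 rest on at most 1 UMI per library and Cxcl10 and Gbp6 on at most 4. Tgtp1 of Tc rests on 12 UMIs in the control and 1 at 24 h.

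Most tested γ and δ chain and type 17 genes of γδ T cells differed less than 2-fold between control dura and dura at 24 h. No test between these single libraries was possible, so equal levels cannot be concluded. None of the 5 tested γ and δ chain genes changed 2-fold (median -0.13). Of 27 tested type 17 genes 2 were lower, Il17f and Il1r1, and 0 higher (median -0.07). Over all genes tested, 2.45% were lower and 4.18% higher. Cd163l1 stood at 1502 and 1374 CPM, Cxcr6 at 2741 and 2619 and Il23r at 170 and 107. Il1r1, the IL-1 receptor, stood at 78.1 and 19.7 CPM. Trac also stood lower at 24 h, at 266 and 104 CPM.

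Pia and dura could be compared with replication only across the control and 24 h libraries of both. The planned minimum of 30 gdTc left 1 tissue with both conditions, so edgeR's quasi-likelihood test was run at the alternative minimum of 10, on 4 libraries with 1 residual degree of freedom and 2352 genes. For MCAO against control it called 0 genes higher (0.0%) and 4 lower (0.17%) at a Benjamini-Hochberg adjusted p under 0.05, and 173 genes had an unadjusted p under 0.05. DESeq2 called 0 higher and 1 lower. For dura against pia edgeR called 5 higher (0.213%) and 2 lower (0.085%).

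Actb had the lowest adjusted p between MCAO and control. Actb, coding for β-actin, stood in gdTc at 5002 CPM (control) and 2173 CPM (24 h) in pia, and at 6079 CPM (control) and 2776 CPM (24 h) in dura (log2 fold change -1.14, SE 0.138, edgeR adjusted p = 0.00144). Tmsb4x, coding for an actin-binding thymosin, fell from 12917 to 9007 CPM in pia and from 14032 to 8844 in dura (-0.59, edgeR adjusted p = 0.0492). Serinc3 and Ppp1r16b fell by 1.12 and 1.32 on the log2 scale, with the same edgeR adjusted p. The directions were shared by Tc and ILC2 of the same libraries. Actb stood at 7549 and 3104 CPM in pia and 4712 and 2754 in dura in Tc, and at 4865 and 2088 and at 3949 and 1992 in ILC2. In control dura 1 gdTc held 97 of the 1324 UMIs of Actb. Actb was called in 5 of 6 settings (highest adjusted p = 0.0753) and each of the other 3 in at most 2.

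Between dura and pia, Blk stood at 464 and 372 CPM in control dura and dura at 24 h and at 55.0 and 42.2 CPM in control pia and pia at 24 h (3.12, edgeR adjusted p = 0.0187), the latter from 1 and 2 UMIs. Nfkbid, an IκB family gene, stood at 556 and 473 CPM against 110 and 127 (2.04, edgeR adjusted p = 0.034). Lower in dura were Gimap3, at 395 and 352 CPM against 989 and 886 (-1.30, edgeR adjusted p = 0.0245), and Lgals3, coding for galectin-3, at 45.9 and 146 CPM against 110 and 696 (-2.11, edgeR adjusted p = 0.034), where the 2 tissues overlap. Blk, Nfkbid and Lgals3 were called in 3 of 6 settings and Gimap3 in 2. Trdc was called too, higher in dura (1.20, SE 0.147) and in 6 of 6 settings, but it also named the cluster and is given as a description. The share of gdTc without a γ or δ constant transcript, given above, was higher in pia than in dura. Its part in these differences was not tested.

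The other 2 genes called higher in dura were immunoglobulin genes, which γδ T cells do not make. Igkc stood at 464 and 448 CPM in gdTc of control dura and dura at 24 h, at 475 and 516 in Tc and at 505 and 568 in ILC2. In pia it stood at 0 and 63.3 CPM in gdTc. Iglc1 stood at 197 and 273 CPM in gdTc of dura and gave no UMI in gdTc of pia. Both genes have close copies and were called in 3 of 6 settings. The 6 B cell markers summed to 629 and 659 CPM in gdTc of dura, with Igkc the most abundant, against 55.0 and 127 in pia. The part of transcripts from other cells in the difference between dura and pia was not tested.

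At 24 h the same contrast in single libraries covered more genes. Of 3153 genes tested, 190 (6.03%) were at least 2-fold higher and 326 (10.3%) at least 2-fold lower in pia than in dura, and the counting interval left out 0 for 49 and 74 of them. Higher in pia were Ms4a4b (274 and 39.4 CPM), Nkg7 (190 and 36.6), Trac (506 and 104), Lgals3 (696 and 146), Abcb9 (190 and 31.0) and Serpinb6b (169 and 36.6). Nkg7 and Ms4a4b are genes of Tc, where they stood at 3123 and 1507 CPM in pia at 24 h. Cd69, an early activation marker that also retains lymphocytes in tissue, gave no UMI in gdTc of pia at 24 h, which allows up to 63.3 CPM, and stood at 189 CPM in dura at 24 h. Iglc1, Snx1, Mapkapk3, Gstp3 and Cnot4, the other lowest genes, also gave no UMI in pia and 97, 50, 49, 40 and 40 UMIs in dura. Of 22 tested type 17 genes 6 were lower in pia and 0 higher, among them Cd163l1 (570 and 1374 CPM), Kcnk1 (127 and 313) and Blk (42.2 and 372), and of 5 tested γ and δ chain genes Trdc and Tcrg-C4 were lower. The counting interval included 0 for Igf1r and Nfkbiz of the type 17 genes and for Tcrg-C4. No γ or δ constant transcript was counted in 30.2% of gdTc in pia and 6.57% in dura. Among the other gdTc Cd163l1 stood at 806 and 1475 CPM and Blk at 59.7 (2 UMIs) and 398. Trdc, one of the genes that choose these cells, stood there at 3285 and 6276 CPM. The part of the cell mix in these differences was not tested. By the supplement the kit was version 2 for pia at 24 h and version 3 for dura at 24 h, while these libraries shared 25 barcodes and the longer gene list. This contrast was added after the data had been seen.

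Other pathways gave few calls between γδ T cells and Tc, in lists too short for this to say much about them. Over all genes tested, 1.9% were higher and 2.24% lower. None of 16 tested genes of oxidative phosphorylation, 9 of hypoxia and glycolysis, 9 heat shock genes or 5 cell cycle genes was called in either direction, with list medians of -0.08, -0.10, -0.16 and -0.64. Of 12 tested type I interferon genes 1, Ifi27l2a, was lower, with a median of -0.91. Junb, an AP-1 subunit, was the most abundant immediate early gene at 3984 to 12983 CPM in gdTc of the 4 libraries, and 1 of 22 tested genes of that list, Dusp2, was lower than in Tc. Macrophage and microglia markers summed to 3495 to 4449 CPM in gdTc of these libraries and 3924 to 4950 in Tc, with 0 of 7 tested called. Erythroid, stromal and endothelial markers summed to 517 and 797 CPM in the short-list libraries, with Hbb-bs, a hemoglobin gene, at 329 and 471, and to at most 105 CPM in the other 6. Mast cell markers were counted in gdTc of dura alone, at 78.1 and 138 CPM summed, and stood at 115 and 150 in Tc of dura.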

How the data were processed

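Single-cell RNA-seq (10x 3′ kits) of sorted leukocytes was analysed in 8 libraries. The deposited matrices hold UMI counts per gene and cell, which the authors made with Cell Ranger 6.0 on mm10 per the submitters' processing notes, and filtered for genes, mitochondrial reads and doublets (scDblFinder) before clustering and naming clusters by hand. Cluster names were taken from the deposited annotation. Control pia was grouped by its tissue label, against its title. The members and lists were chosen with earlier results of these data known.

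Counts were summed per library and cluster over 30406 shared genes and scaled to CPM. The rule of size (at least 2-fold in the same direction in each library) needed 20 UMIs over both clusters in each library, with 0.5 counts added. It named the 10 highest and 10 lowest genes by mean log2 ratio, and for single-library contrasts the 6 highest and 6 lowest. Within gdTc, edgeR 4.0.16 (R 4.3.3) fitted condition and tissue on TMM-scaled sums. DESeq2 1.42.0 was an alternative. Intervals are exact at 95%, and floors are 3 counts. Python 3.11.15, numpy 2.4.6, scipy 1.17.1 and pandas 2.3.3 were used. The rule of size was checked on simulated data against Tc, against ILC2 and for dura at 24 h against control. The edgeR test of MCAO was checked likewise. The dura contrast and the edgeR test also called some genes simulated as unchanged. Some genes of the lists are not reported here.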

Additional observations from a re-analysis of the deposited data

Results flagged for a closer look

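The share of γδ T cells among lymphoid cells moved in opposite directions in the 2 meningeal tissues. In dura it was 17.3% in the control and 14.9% at 24 h. In pia it was 5.69% in the control and 7.35% at 24 h. The difference between the tissues was not tested, since each condition is 1 library. The exact 95% intervals overlapped in dura (15.1 to 19.7 and 13.5 to 16.4) and in pia (3.29 to 9.08 and 5.37 to 9.77). Of all annotated cells the share was higher at 24 h in both tissues, 6.76% and 7.75% in dura and 0.569% and 1.10% in pia.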

How the results depend on the processing

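Calls depended on the minimum of UMIs and on library number. Against lymphoid clusters in place of all annotated cells, shares of γδ T cells were 8.82% in control brain, 5.56% and 4.12% in brain at 24 h replicates 1 and 2, and 6.12% in brain at 72 h. They were 5.69% (control) and 7.35% (24 h) in pia, and 17.3% (control) and 14.9% (24 h) in dura. Outside the microglia clusters they were 1.06% in control brain and 0.253% and 1.22% in replicates 1 and 2 of brain at 24 h, and 0.816% at 72 h.

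Against Tc, higher and lower genes numbered 476 and 75 with no minimum of UMIs, 12 and 23 with a minimum of 50 UMIs, 22 and 26 with libraries of at least 10 cells, and 13 and 23 with cells thinned to 500 UMIs. Leaving out 1 library in turn gave 40 to 75 higher and 49 to 79 lower genes, most without brain at 72 h (75 and 79), then without pia at 24 h (64 and 63). Against ILC2 they numbered 14 and 21 with TMM factors, 283 and 84 with no minimum, 11 and 7 with a minimum of 50, 14 and 4 with libraries of at least 10 cells, and 8 and 2 with thinned cells. Leaving out 1 library gave 24 to 44 higher and 13 to 44 lower genes, with 44 and 44 without brain at 72 h and 41 and 24 without pia at 24 h. A main call cannot be lost by leaving out a library, since the rule asks for every library. With thinned cells 10 of 13 higher and 19 of 25 lower genes that could still be tested against Tc were kept. For dura at 24 h, 2 counts added gave 89 higher genes, and no minimum gave 1303 higher and 1630 lower.

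For MCAO against control in gdTc, lower genes numbered 1 with DESeq2, 1 with the total count as scale, 1 with no filter, 2 with thinned cells and 0 without the tissue term. For dura against pia, higher and lower genes numbered 1 and 0 with DESeq2, 1 and 0 with the total count, 10 and 1 with no filter, 1 and 1 with thinned cells and 5 and 1 without the condition term. The causes of these changes were not tested. Leaving out 1 of these 4 libraries leaves no residual degrees of freedom and was not run, and the planned minimum of 30 cells left too few libraries. Among lymphoid clusters the order against control turned in dura at 24 h, in brain at 72 h and in replicate 2 of brain at 24 h, and outside microglia in brain at 72 h. None of the 20 highest and lowest genes against Tc, the 20 against ILC2 and the 12 of dura at 24 h changed sign under the alternatives run, and ratios of other named genes were not recomputed. With 2 counts added, Cd163l1, Cd8a, Cd8b1, Gzmk, Gimap7 and Klrd1 moved against Tc, and Trdc, Cd163l1 and Hes1 against ILC2, by more than their spread. Conditions could not be paired by replicate because no groups share 2 replicate numbers. Brain γδ T cells are few, so genes under 54.3 CPM at 72 h lie below 3 counts.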

Other observations

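Barcodes without an annotated cluster also held δ chain transcripts, mainly in dura. A UMI of Trdc occurred in 25 of 293 such barcodes in control dura (8.53%, exact 95% interval 5.60 to 12.3) and in 47 of 538 in dura at 24 h (8.74%, 6.49 to 11.4), and in at most 1.13% in each of the other 6 libraries. These barcodes enter no comparison of the report.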
